A study of Rattus norvegicus with 4 samples.

Results

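Slpi Fcna macrophages are immune cells of the rat subcutaneous fascia that hold many transcripts of Slpi together with Fcna. They were chosen by their own counts, as fascia barcodes with at least 5 UMIs (unique molecular identifiers, that is, distinct RNA molecules) of Slpi and at least 2 of Fcna. Each also had at least 1 UMI of the immune genes Ptprc, Cd68 and Csf1r as a sum, under 20 of the collagen genes Col1a1 and Col3a1 and under 50 of the neutrophil genes S100a8 and S100a9. Counting barcodes where 500 or more genes were detected and mitochondrial genes took no more than 20% of UMIs, 596 of the 13820 fascia cells met the rule, out of 37722 cells kept in the 4 libraries. They were 388 cells in fascia replicate 1 and 208 in fascia replicate 2. Since the rule reads Slpi, Fcna and the other gate genes, levels of those genes are given as a description, with no test.

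The study profiled skin and subcutaneous fascia of wild-type rats by droplet single-cell RNA sequencing (10x Genomics, 3' ends), with 2 libraries for each tissue. Minced tissue was digested with collagenase, elastase and DNase, red blood cells were lysed and dead cells were removed. Nothing in the labels states that each library is a separate animal. The p-values measure how differences between groups of cells vary from library to library, pooled over the groups, and that spread may be technical. The Slpi Fcna macrophages were set against 3 other groups of cells from the same wild-type fascia libraries that passed the same immune, collagen and neutrophil gates. Slpi-low Fcna macrophages had at most 1 Slpi UMI and at least 2 Fcna UMIs (727 and 885 cells in replicates 1 and 2). C1q Mrc1 macrophages had at most 1 UMI of each of Slpi and Fcna, at least 5 of C1qa, C1qb and C1qc together and at least 1 of Mrc1 (34 and 97 cells). Ccr2 Lyz2 cells had at most 1 UMI of each of Slpi and Fcna, under 5 of the C1q genes and at least 1 of each of Ccr2 and Lyz2 (288 and 713 cells).

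Macrophages that live in connective tissue take up dead cells, debris and iron, and fall broadly into cells rich in scavenger receptors such as Cd163, Lyve1 and Folr2, often found along vessels, and cells that present antigen on MHC class II molecules and are replenished from Ccr2-bearing monocytes. Slpi encodes secretory leukocyte protease inhibitor, a small secreted protein that blocks neutrophil elastase and related serine proteases and is known from mucosal epithelium, neutrophils and macrophages. Fcna encodes ficolin A, a secreted lectin that binds sugars on microbes and starts the lectin pathway of complement, and Cd209f belongs to the family of C-type lectin receptors named after DC-SIGN.

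The fascia libraries held 95777810 and 83852172 UMIs over 7697 and 7712 deposited barcodes, and the Slpi Fcna macrophages summed to 4830098 and 2722115 UMIs. A Slpi Fcna macrophage held a median of 12232.5 UMIs in replicate 1 and 12426.5 in replicate 2, against 12114 and 10646 in Slpi-low Fcna macrophages. Fascia replicates 1 and 2 shared 26 deposited barcode sequences, none of them a Slpi Fcna macrophage in both. Scrublet, which scores barcodes for 2 cells in 1 droplet, marked 10 Slpi Fcna macrophages in each library (2.58% and 4.81%), against 1.51% and 4.18% of the Slpi-low Fcna macrophages. Markers are given as a description, since the rule read some of them, such as Cd68, Csf1r, S100a8 and S100a9. In both libraries 12 of 12 macrophage markers and 11 of 12 resident macrophage markers had UMIs in the chosen cells, with Marco at 0. So did 10 of 10 fibroblast markers, so having a UMI does not check the label. The macrophage list summed to 33518 and 29385 UMIs per 1000000 UMIs of the chosen cells, and the fibroblast list to 788 and 504. The neutrophil list summed to 2.1 and 15.8 UMIs per 1000000 UMIs of the chosen cells, with Cxcr2, Retnlg, Mmp8, Ngp and Ltf at 0 in both libraries.

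Slpi Fcna macrophages made up 5.70% of fascia cells in replicate 1 (exact 95% interval 5.16 to 6.27) and 2.97% in replicate 2 (2.58 to 3.39). The intervals cover counting error only, and the libraries differed by more than that. In skin no cell met the rule, among 7460 and 16442 cells kept, which allows a share of up to 0.0402% and 0.0182%. Skin did hold Slpi-low Fcna macrophages, 48 cells in replicate 1 and 17 in replicate 2, and depth differed between the tissues, with medians of 12908 and 10452 UMIs in fascia cells against 9039.5 and 2352.5 in skin cells.

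Within the fascia, these cells held most of the Slpi UMIs, which the rule partly fixes, since it asks for Slpi. They held 91.5% and 72.0% of all Slpi UMIs of the kept cells in replicates 1 and 2. Other cells, which met no named gate, held 7.26% and 25.4%. A Slpi Fcna macrophage carried a median of 81 Slpi UMIs in replicate 1 and 32 in replicate 2, with the highest cells at 482 and 307. The distribution was wide: 10.1% and 16.3% of the cells lay just inside the threshold, at 5 to 9 UMIs, and 41.2% and 19.2% had 100 or more. Just outside it, 80 and 61 cells with at least 2 Fcna UMIs had 2 to 4 Slpi UMIs.

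**Figure D1:**
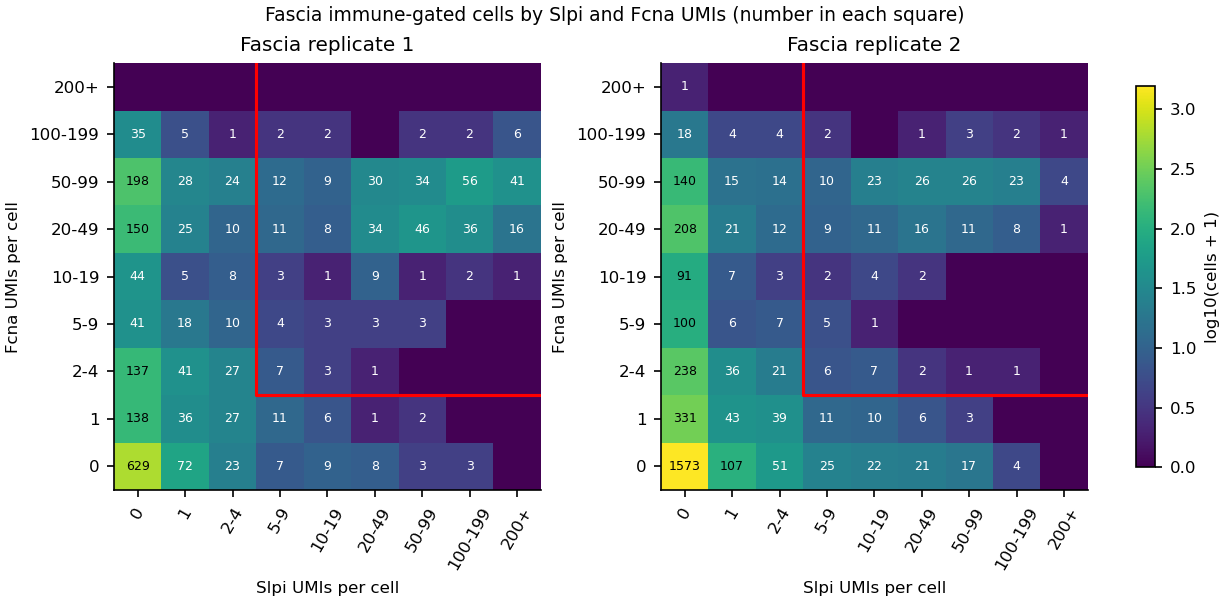
Number of immune-gated fascia cells by Slpi UMIs per cell (horizontal) and Fcna UMIs per cell (vertical) in each fascia library, with the colour on a log10 scale. The red line bounds the Slpi Fcna macrophages (388 and 208 cells), which lie mostly at 20 or more Fcna UMIs, while most cells outside the bound have 0 or 1 Slpi UMIs.

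Fcna was shared with other macrophages. Slpi Fcna macrophages carried a median of 50 and 55.5 Fcna UMIs and held 37.4% and 28.5% of the fascia's Fcna UMIs, against 53.1% and 63.5% in Slpi-low Fcna macrophages. Of the gated cells with at least 2 Fcna UMIs, 32.5% and 18.0% had 5 or more of Slpi. Of those with at least 5 Slpi UMIs, 88.6% and 63.6% had 2 or more of Fcna. Thus cells high in Slpi mostly carried Fcna, and most cells with Fcna had little or no Slpi.

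Cd209f, which the rule did not use, was present in part of the cells. A Cd209f UMI was found in 52.3% of Slpi Fcna macrophages in replicate 1 and 33.2% in replicate 2, against 30.1% and 11.9% of Slpi-low Fcna macrophages. In collagen-rich cells, which should lack it and were deeper (medians of 16540.5 and 15292 UMIs), the share was 0.887% and 0.619%. Summed over cells, Cd209f stood at 716 and 536 CPM in Slpi Fcna macrophages, against 446 and 122 CPM in Slpi-low Fcna macrophages, where CPM means UMIs per 1000000 UMIs of a summed group, scaled by TMM (trimmed mean of M-values, which corrects for composition). Slpi Fcna macrophages were higher in both libraries, and the groups did not overlap. The log2 difference of 1.51 (SE 0.52) did not pass the test (adjusted p = 0.246, edgeR's quasi-likelihood test, Benjamini-Hochberg adjusted over all genes tested), and its value within a library was 0.70 in replicate 1 and 2.08 in replicate 2.

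**Figure D2:**
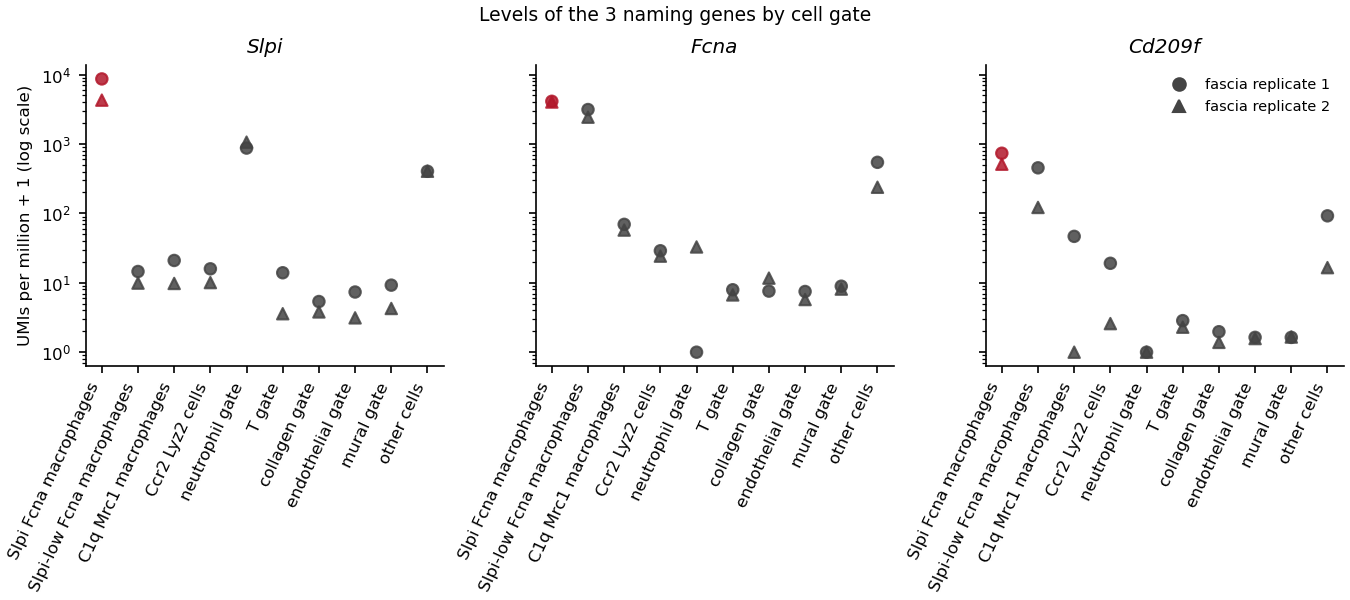
Summed UMIs per 1000000 UMIs, with 1 added (log scale, without TMM scaling), of Slpi, Fcna and Cd209f in Slpi Fcna macrophages (red, left) and in 9 other gates of fascia cells, with a circle for replicate 1 and a triangle for replicate 2. Slpi Fcna macrophages are highest for all 3 genes, of which the rule read Slpi and Fcna. The neutrophil gate, with 3 and 38 cells, is next for Slpi.

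The reference sequences upstream of Fcna and Cd209f are shown because these genes name the cells, although Slpi-low Fcna macrophages carry both, and that of Dhrs7 because it had the largest change of a gene without a close copy when the cells were set against Slpi-low Fcna macrophages. Each is 300 bases, 5' to 3' on the gene's strand, from RefSeq (build GRCr8), with 250 bases before the annotated start and 50 after it. Capitals mark matches, on either strand, to the core GAGGAA bound by the myeloid factor PU.1 or to TGANTCA, the site of AP-1. The table used has no entry under Slpi.
Fcna promoter, chr3:28847188-28847487, minus strand: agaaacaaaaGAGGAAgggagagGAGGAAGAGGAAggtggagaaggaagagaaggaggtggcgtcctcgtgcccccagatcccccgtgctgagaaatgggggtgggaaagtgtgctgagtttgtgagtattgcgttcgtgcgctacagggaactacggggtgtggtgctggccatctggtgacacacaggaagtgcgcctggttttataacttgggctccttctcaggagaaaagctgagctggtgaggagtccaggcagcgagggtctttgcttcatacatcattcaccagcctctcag
Cd209f promoter, chr12:7282025-7282324, plus strand: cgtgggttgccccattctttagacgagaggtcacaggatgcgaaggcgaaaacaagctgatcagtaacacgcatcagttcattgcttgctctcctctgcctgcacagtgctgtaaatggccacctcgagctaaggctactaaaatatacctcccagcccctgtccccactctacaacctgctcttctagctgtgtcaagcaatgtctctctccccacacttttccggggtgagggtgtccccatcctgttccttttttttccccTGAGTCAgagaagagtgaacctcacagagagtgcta
Dhrs7 promoter, chr6:97083695-97083994, minus strand: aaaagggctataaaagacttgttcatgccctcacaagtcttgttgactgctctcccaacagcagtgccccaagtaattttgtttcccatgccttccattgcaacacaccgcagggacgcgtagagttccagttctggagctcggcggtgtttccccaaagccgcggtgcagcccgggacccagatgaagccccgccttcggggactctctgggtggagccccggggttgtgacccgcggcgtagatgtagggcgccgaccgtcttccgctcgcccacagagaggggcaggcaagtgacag
The Fcna window holds GAGGAA 3 times and no TGANTCA. At least 1 GAGGAA, on either strand, occurs in 27.6% of the 33469 windows of the same length. The Cd209f window holds TGANTCA once, which occurs in 7.33% of all windows, and the Dhrs7 window holds neither. These are letter matches, and nothing about binding was measured.

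The closest comparison set Slpi Fcna macrophages against Slpi-low Fcna macrophages. Of 12161 genes tested, gate genes left out, 92 were higher (0.757% of genes) and 114 lower (0.937%) in Slpi Fcna macrophages at an adjusted p under 0.05 by edgeR's quasi-likelihood test, Benjamini-Hochberg adjusted, with the library as a block. Both groups come from the same libraries, and without that block 9 genes were called, Hba-a3, Dhrs7 and C6 among them. Slpil3, which follows Slpi and so the choice of cells, is counted in the 92 and in the 9. The cells were higher for Dhrs7, Crabp2, C6, Calml4 and Loxl2 and lower for 4 of 10 MHC class II genes, among them Cd74 and Ciita. The median log2 difference over all genes was 0.0043. Most resident macrophage genes did not pass the test in this comparison.

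Dhrs7, which encodes a short-chain dehydrogenase/reductase of the endoplasmic reticulum, was at 531 and 546 CPM in Slpi Fcna macrophages, against 85.4 and 80.6 CPM in Slpi-low Fcna macrophages. The groups lay far apart, with little spread within each, and the log2 difference was 2.70 (SE 0.12, adjusted p = 9.36e-05 by edgeR). A Dhrs7 UMI was found in 87.9% and 85.6% of Slpi Fcna macrophages, against 49.8% and 45.3% of Slpi-low Fcna macrophages. C6, a terminal component of complement that takes part in the membrane attack complex, was at 526 and 407 CPM in Slpi Fcna macrophages, against 139 and 107 CPM in Slpi-low Fcna macrophages. All libraries of the first group lay above those of the other, and the log2 difference was 1.92 (SE 0.11, adjusted p = 0.000563 by edgeR).

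Crabp2, which carries retinoic acid to its nuclear receptors, was at 254 and 182 CPM in Slpi Fcna macrophages, against 72.1 and 43.6 CPM in Slpi-low Fcna macrophages. The groups did not overlap, and the log2 difference was 1.93 (SE 0.15, adjusted p = 0.00261 by edgeR). Loxl2, a secreted lysyl oxidase that cross-links collagen and elastin, was at 271 and 192 CPM in Slpi Fcna macrophages, against 90.4 and 53.3 CPM in Slpi-low Fcna macrophages, a log2 difference of 1.72 (SE 0.16). Fbln5, an elastic fibre protein, differed by 1.85, the junctional adhesion molecule gene F11r by 1.89, Calml4, a calmodulin-like gene, by 1.72 and the metallothionein gene Mt2A by 1.64. Each was higher in Slpi Fcna macrophages in both libraries, with adjusted p-values between 0.00448 and 0.0326 by edgeR for these genes and Loxl2. Siglec10, an inhibitory sialic acid receptor, Ntsr1, the neurotensin receptor, Rnase1, a secreted ribonuclease, and Ltc4s, leukotriene C4 synthase, were also higher in Slpi Fcna macrophages, with log2 differences of 1.63, 1.24, 1.14 and 1.13.

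Slpil3 and Hba-a3 differed most and are uncertain, since reads can be shared with near copies. Slpil3 (identifier ENSRNOG00000049280), which RefSeq lists as a pseudogene next to Slpi, was at 743 and 392 CPM in Slpi Fcna macrophages, against 2.41 and 1.52 CPM in Slpi-low Fcna macrophages. It follows Slpi, on which the cells were chosen, and is given as a description. Hba-a3, an alpha-globin gene, was at 248 and 467 CPM in Slpi Fcna macrophages, against 40.5 and 21.4 CPM in Slpi-low Fcna macrophages, with no overlap and a log2 difference of 3.50 (SE 0.37, adjusted p = 0.00756 by edgeR). It was spread over the cells: 38.9% and 57.2% of Slpi Fcna macrophages had a Hba-a3 UMI, against 5.2% and 5.9% of Slpi-low Fcna macrophages. The top 1% of cells held 15.2% and 8.8% of its UMIs in Slpi Fcna macrophages, against 66.8% and 57.8% in Slpi-low Fcna macrophages. Other globin genes gave another picture. Hba-a2 was at 177 and 242 CPM in Slpi Fcna macrophages, against 479 and 202 CPM in Slpi-low Fcna macrophages, which overlap, and Hbb-b1 at 29.5 and 84.6 CPM against 527 and 117 CPM. Neither passed the test (adjusted p = 0.507 and 0.226 by edgeR). The erythroid marker list, globins included, summed to 465 and 755 CPM without TMM scaling in Slpi Fcna macrophages, against 1061 and 336 in Slpi-low Fcna macrophages, and the part of red cell RNA in Hba-a3 was not tested.

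**Figure D3:**
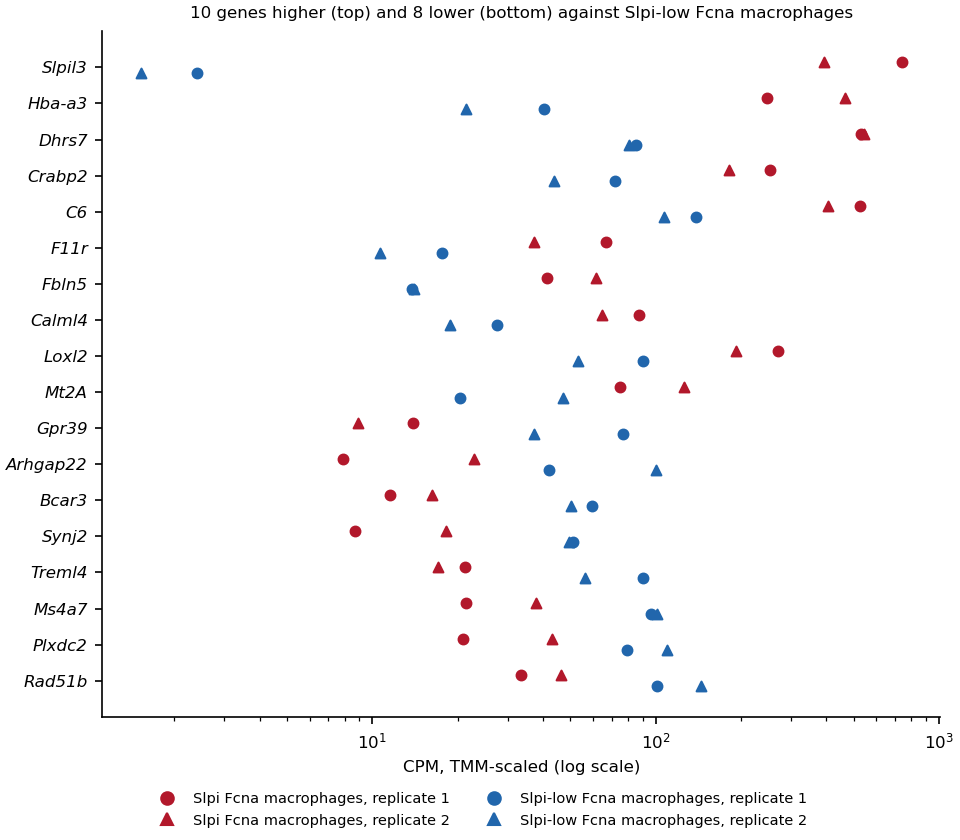
Levels (CPM, TMM-scaled, log scale) of the 10 named genes with the largest increase and the 8 with the largest decrease in Slpi Fcna macrophages (red, upper points of each row) against Slpi-low Fcna macrophages (blue, lower points), with a circle for replicate 1 and a triangle for replicate 2. The genes were chosen among those called, at 50 CPM or more and with groups that do not overlap, and the distance between red and blue is widest for Slpil3.

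Of 10 MHC class II genes, which present antigen, 4 were lower in Slpi Fcna macrophages and none higher, with a median log2 difference of -1.36 over the list against 0.0043 over all genes. Cd74, the invariant chain that guides class II molecules through the cell, was at 3240 and 5756 CPM in Slpi Fcna macrophages, against 12186 and 13339 CPM in Slpi-low Fcna macrophages. The groups did not overlap, and the log2 difference was -1.51 (SE 0.26, adjusted p = 0.0347 by edgeR). RT1-DMa and RT1-DMb, which load peptide, differed by -0.90 and -0.73, and Ciita, the transcription factor that switches class II genes on, by -2.05. RT1-Da, RT1-Db1, RT1-Ba and RT1-Bb had values between -1.47 and -1.31, with adjusted p-values of 0.0556 to 0.112 by edgeR. With both groups held to at least 20 Fcna UMIs, a setting chosen after seeing the data, Cd74 (-1.05), RT1-DMa (-0.21) and RT1-DMb (-0.05) lost their calls.

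Among the most decreased genes, Treml4, a receptor of the TREM family known from monocytes, was at 21.2 and 17.0 CPM in Slpi Fcna macrophages, against 90.0 and 56.3 CPM in Slpi-low Fcna macrophages, a log2 difference of -1.95 (SE 0.17). Ms4a7, a membrane-spanning protein of macrophages, differed by -1.80 and Arhgap22, which limits Rac activity, by -2.26. Gpr39, a zinc-sensing receptor, differed by -2.40, Synj2, an inositol phosphatase, by -2.01 and Rad51b, a DNA repair gene, by -1.61. Bcar3, Plxdc2 and Plekhm3 had -2.08, -1.62 and -1.52. All were lower in Slpi Fcna macrophages in both libraries, with adjusted p-values of 0.00448 to 0.0393 by edgeR. With at least 20 Fcna UMIs in both groups, 1 of the 10 most decreased genes, Synj2, was still called, and Gpr39 and Treml4 turned to 1.55 and 0.30. Without cells carrying a Ccr2 UMI, also chosen after seeing the data, 4 of the 10 were called, and none without the library as a block. Clec12a, an inhibitory C-type lectin receptor, Pparg, a lipid-sensing nuclear receptor, and Il1rn, the interleukin-1 receptor antagonist, were at under 50 CPM in both groups and were also lower.

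The cells also differed in a few genes of cytokine signalling and iron handling. Of 13 inflammatory cytokine genes tested, 2 were higher: Nlrp3, the inflammasome sensor, at 157 and 344 CPM in Slpi Fcna macrophages against 73.9 and 149 CPM in Slpi-low Fcna macrophages, and Il1a. Nlrp3 did not overlap between the groups, although it was higher in replicate 2 than in replicate 1 in both, and its log2 difference was 1.15 (SE 0.12, adjusted p = 0.00751 by edgeR). Il1a was at 10.9 and 90.4 CPM in Slpi Fcna macrophages, against 4.49 and 35.5 CPM in Slpi-low Fcna macrophages, higher within each library. Of 13 genes of alternative activation, Il4r, the interleukin-4 receptor, and the anti-inflammatory cytokine gene Il10 were higher, by 1.20 and 1.02, and 2 were lower. Of 11 iron and haem genes, Tfrc, the transferrin receptor, and Cp, ceruloplasmin, were higher, by 1.32 and 0.72.

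Of 10 resident macrophage genes tested against Slpi-low Fcna macrophages, 1 was higher, Lyve1, and the median log2 difference was 0.42. Lyve1, a hyaluronan receptor, was at 2275 and 1172 CPM in Slpi Fcna macrophages, against 1338 and 714 CPM in Slpi-low Fcna macrophages. It was higher within each library, although the groups overlapped across libraries, and the log2 difference was 0.74 (SE 0.11, adjusted p = 0.0214 by edgeR). Cd163, the haemoglobin-haptoglobin receptor, was at 1877 and 1735 CPM in Slpi Fcna macrophages, against 1428 and 1252 CPM in Slpi-low Fcna macrophages, and did not pass (log2 difference 0.43, SE 0.27). F13a1, the coagulation factor XIII A chain, had 0.56, Folr2, a folate receptor, 0.41, Stab1, a scavenger receptor, -0.28 and Pf4 -0.36, none of which passed. Cathepsin and lysosomal genes had 2 of 19 higher, Ctsl by 0.79 and Psap by 0.63, and Cd14, the co-receptor for lipopolysaccharide, was higher by 0.71.

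Gate genes, which the choice of cells touches, are described only. Ccr2 was at 37.6 and 66.0 CPM in Slpi Fcna macrophages, against 174 and 181 CPM in Slpi-low Fcna macrophages, and Lyz2, lysozyme, at 4922 and 5022 CPM against 8104 and 6724 CPM. C1qa was at 6584 and 6212 CPM in Slpi Fcna macrophages, against 5037 and 4294 CPM in Slpi-low Fcna macrophages, and Fcna at 4014 and 4217 CPM against 3086 and 2461 CPM. The Slpi-low group reaches down to cells with few Fcna UMIs, while 36.5% and 30.9% of the Ccr2 Lyz2 cells, and 8.15% and 8.40% of the collagen-rich cells, carried an Fcna UMI as well. Holding both groups to at least 20 Fcna UMIs leaves 347 and 177 Slpi Fcna macrophages and 441 and 407 Slpi-low ones, and 15 genes were called. Hba-a3, Dhrs7, Crabp2, C6, Mt2A, Nlrp3 and Synj2 were still called there, and Lyve1 (0.37) was not. Slpil3 was called as well, but it follows Slpi, on which the cells were chosen, so its call is no support. With cells carrying a Ccr2 UMI left out, 60 genes were called and Cd74 differed by -3.20.

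Markers of other cell types were also compared between the groups. Without TMM scaling, the fibroblast list summed to 788 and 504 CPM in Slpi Fcna macrophages, against 561 and 367 in Slpi-low Fcna macrophages, and 1 of its 6 tested genes was higher, Clec3b, which encodes tetranectin (log2 difference 1.60, SE 0.12, adjusted p = 0.00261 by edgeR). The blood endothelial list summed to 180 and 39.7 in Slpi Fcna macrophages, against 91.6 and 86.0 in Slpi-low Fcna macrophages, and the monocyte list to 1304 and 1922 against 1167 and 1526. Cd14 was the largest member of the monocyte list, at 899 and 891 against 535 and 571. Of the 9 monocyte genes tested, Cd14 was higher and Treml4 lower, and the median log2 difference was -0.49. The dendritic list summed to 160 and 201 in Slpi Fcna macrophages, against 163 and 195 in Slpi-low Fcna macrophages. The part of other cells in the differences above was not tested.

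Levels in Fcna macrophages were also set out by the number of Slpi UMIs per cell. This is a description over bands of Slpi counts, each with 40 to 885 cells, in CPM without TMM scaling. Across cells with 0 to 1, 2 to 4, 5 to 19, 20 to 99 and 100 or more Slpi UMIs, Dhrs7 stood at 86.5, 116, 180, 422 and 793 in replicate 1 and at 79.5, 270.0, 330.1, 553 and 792 in replicate 2. Dhrs7 increased at every step in both libraries. Of the 10 genes most increased in Slpi Fcna macrophages, 6 increased at every step in replicate 1 and 7 in replicate 2, and of the 10 most decreased, 1 and 2 decreased at every step. These genes were chosen for their difference between cells high and low in Slpi, Slpil3 among them, so the counts are no independent support.

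Antigen presentation genes ran the other way, with a drop between the bands of 5 to 19 and of 20 to 99 UMIs. Over the same 5 bands Cd74 was at 12349.7, 17315, 12302, 2001 and 693 in replicate 1 and at 13156, 12506, 10601, 2762 and 2029 in replicate 2. Ccr2 was at 177, 230.2, 160.2, 11.3 and 10.6 in replicate 1 and at 178, 129.8, 119.8, 37.3 and 14.6 in replicate 2. The 65 and 80 Slpi Fcna macrophages with 5 to 19 Slpi UMIs thus had Cd74 and Ccr2 levels close to those of Slpi-low Fcna macrophages, while the cells with 20 or more did not. C1qa and Cd163 were higher at 20 or more Slpi UMIs than at 0 to 1 in both libraries.

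**Figure D4:**
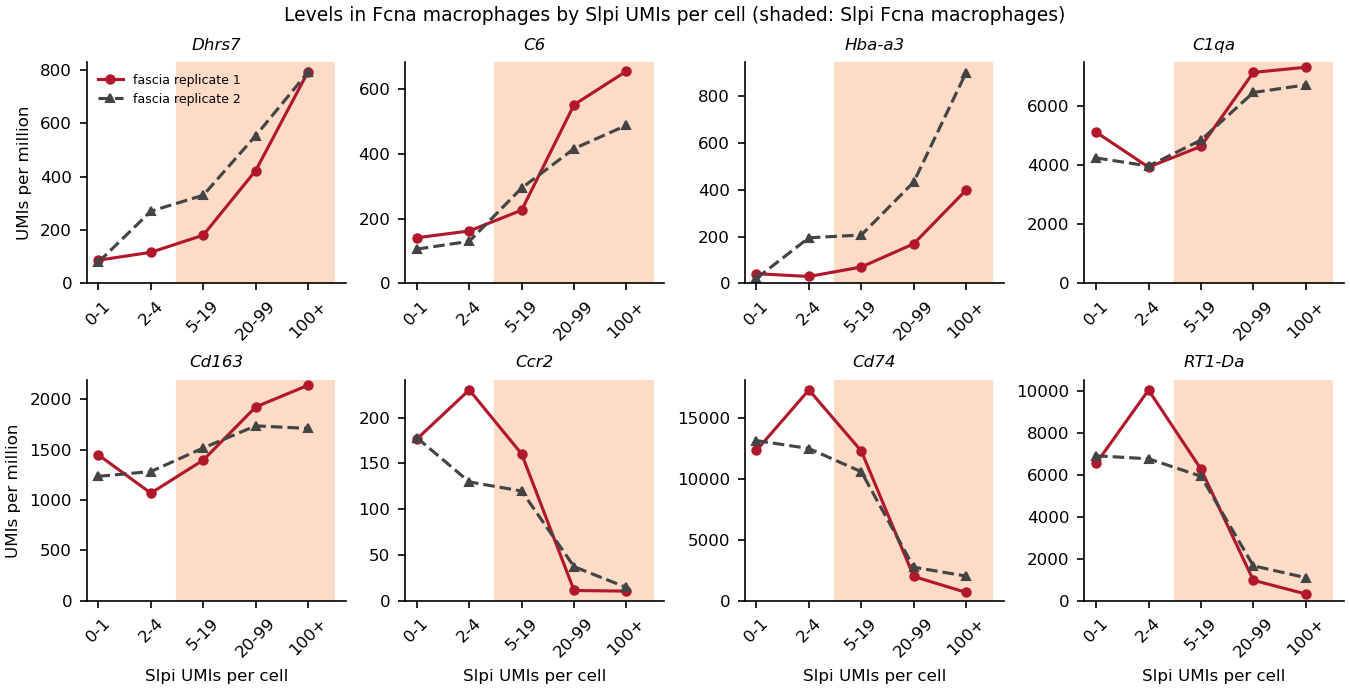
Level of 8 genes (UMIs per 1000000 UMIs, linear axes from 0) in Fcna macrophages grouped by Slpi UMIs per cell, with replicate 1 as a solid line and replicate 2 as a dashed line; the shaded bands are the Slpi Fcna macrophages. Dhrs7 and C6 increase along the bands, while Ccr2, Cd74 and RT1-Da drop between 5 to 19 and 20 to 99 UMIs.

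Slpi Fcna macrophages were not uniform among themselves. Cd209f divided them: 44.1% and 29.8% of the cells had 5 or more Cd209f UMIs, 47.7% and 66.8% had none, and 8.25% and 3.37% lay between. Depth was alike, with medians of 12288 and 12372.5 UMIs in cells with 5 or more and 12494 and 12675 in cells with none, as was Fcna (medians of 52 and 56.5 UMIs against 54 and 54). Slpi was not alike, with medians of 108 and 43 UMIs in cells with 5 or more Cd209f UMIs, against 65 and 32 in cells with none. Of 3526 genes at 50 CPM or more, without TMM scaling, 7 were at least 3-fold lower, with 1 added to each level, in Cd209f-high cells in both libraries (0.199% of genes), Cd74 and 4 RT1 class II genes among them, and 2 at least 3-fold higher (0.0567%), Cd209f itself and a gene without a symbol, ENSRNOG00000001027. No test was run on this split.

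Class II genes were lower in Cd209f-high cells than in cells without Cd209f in both libraries. Cd74 was at 1133 and 211 CPM, without TMM scaling, in Cd209f-high cells, against 4114 and 7852 in cells without Cd209f. RT1-Da was at 526 and 93.4 in Cd209f-high cells, against 2161 and 4480.2 in cells without Cd209f, and RT1-Db1 at 476 and 47.3 against 1821 and 3986. The other genes that were lower were RT1-Ba, RT1-Bb, Tmtc2 and Plekhm3. The 32 and 7 cells with 1 to 4 Cd209f UMIs did not lie between these groups: Cd74 was at 12012 in replicate 1 and 78.8 in replicate 2, and RT1-Da at 5631 and 63.03. Cd74 was also lower in Fcna macrophages with 20 or more Slpi UMIs than in those with fewer, and the part of Slpi in the Cd209f division was not tested.

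The libraries also differed within the cells. Of 3468 genes at 50 CPM or more, 3 were at least 4-fold higher in replicate 1 (0.0865% of genes) and 10 in replicate 2 (0.288%), with no test, since each side is 1 library. Plvap, Clu and Aqp1 were higher in replicate 1. Plvap, a protein of endothelial fenestrae, was at 77.8 CPM in Slpi Fcna macrophages of replicate 1 and 5.79 CPM in those of replicate 2, while Slpi-low Fcna macrophages had 64.7 and 54.1 CPM. The blood endothelial list moved with it, at 180 and 39.7 CPM in Slpi Fcna macrophages of replicates 1 and 2, and its part in these differences was not tested. In replicate 2 Fcnb, a second ficolin, Ccl3 and Il1a were among the higher genes, and Il1a was at 10.9 CPM in replicate 1 and 90.4 CPM in replicate 2. Of these 13 genes, 11 differed in the same direction between the libraries in Slpi-low Fcna macrophages.

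Among chemokines, Ccl2 and Ccl7 were higher in replicate 2, and Cxcl13 and Cxcl12 in replicate 1. Ccl2 was at 1447 CPM in replicate 1 and 5140.2 CPM in replicate 2 in Slpi Fcna macrophages, and at 1340.3 and 3301 CPM in Slpi-low Fcna macrophages. Ccl7 was at 1157 and 4133 CPM in Slpi Fcna macrophages, and at 886 and 2393 CPM in Slpi-low Fcna macrophages. Neither passed the test between the groups of cells, with log2 differences of 0.44 and 0.62. Both attract monocytes through Ccr2. Cxcl13 was at 311 CPM in replicate 1 and 164 CPM in replicate 2 in Slpi Fcna macrophages, and Cxcl12 at 56.2 and 25.9 CPM.

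Clustering of all fascia cells placed most of the chosen cells together at low resolution. Slpi, Fcna and the other gate genes were not left out of the clustering, so the cells may group partly by the genes that chose them. At a Leiden resolution of 0.5, 1 of 22 clusters held 86.6% and 77.9% of them. At a resolution of 1, with 31 clusters, 1 cluster led by Slpi, Slpil3, Rnase1, Crabp2 and Cd209f held 81.4% in replicate 1 and 26.0% in replicate 2. A cluster led by Il1a, Cxcl1, Ccl7, Slc7a8 and Il10 held 4.64% and 51.0%. Slpi Fcna macrophages were 65.3% and 70.1% of the cells of the cluster led by Slpi, and 19.4% and 29.3% of the cluster led by Il1a, which also held 66 and 222 Slpi-low Fcna macrophages.

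A further comparison asked how Slpi Fcna macrophages differ from macrophages with C1q and Mrc1 but little Fcna. In Slpi Fcna macrophages 6 of 11 scavenger receptor genes, 15 of 19 lysosomal genes and 9 of 11 iron and haem genes were higher, and 9 of 10 MHC class II genes were lower. Of 12161 genes, 835 were higher (6.87% of genes) and 743 lower (6.11%) by edgeR's quasi-likelihood test, Benjamini-Hochberg adjusted, and 976 were called without the library as a block. The C1q Mrc1 macrophages summed to 350813 and 797569 UMIs, so genes of low level are less precise in this comparison. They also sat in different clusters in the libraries. In replicate 1, 61.8% of them were in a cluster led by Gpr39, Fcrl2, Gprc5d, Cd80 and Treml4. It held 47.9% of the Ccr2 Lyz2 cells of that library. In replicate 2, 64.9% of the C1q Mrc1 macrophages were in a cluster led by Ms4a7, Trem2, Slc15a2 and Pf4. Ccr2 was at 37.6 and 66.0 CPM in Slpi Fcna macrophages, against 345 and 278 CPM in C1q Mrc1 macrophages. Despite their name, C1q Mrc1 macrophages held less of both genes than Slpi Fcna macrophages. C1qa was at 1221 and 1894 CPM in them, against 6584 and 6212 CPM, and Mrc1 at 545 and 1288 CPM, against 1876 and 1887 CPM. Lyz2 was at 14015 and 9191 CPM in them, against 4922 and 5022 CPM. These are gate genes and are described only.

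Resident macrophage genes had 7 of 10 higher and none lower, with a median log2 difference of 1.89 against 0.02 over all genes. Cd163 was at 1877 and 1735 CPM in Slpi Fcna macrophages, against 157 and 342 CPM in C1q Mrc1 macrophages, a log2 difference of 2.81 (SE 0.30, adjusted p = 0.00126 by edgeR). Lyve1 was at 2275 and 1172 CPM in Slpi Fcna macrophages, against 554 and 287 CPM in C1q Mrc1 macrophages, and the groups did not overlap for either gene. Cd209f was at 716 and 536 CPM in Slpi Fcna macrophages, against 43.4 and 0 CPM in C1q Mrc1 macrophages. Of 11 scavenger receptor genes 6 were higher, among them Colec12, a collectin that takes up lipoprotein and microbes, by 3.36, and Axl was lower, with a log2 difference of -2.61. Slpi-low Fcna macrophages had Colec12 at 518 and 555 CPM without TMM scaling. Against them 1 of the 11 scavenger receptor genes was higher.

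Of the lysosomal enzymes, Lipa and Ctsz were lower, with log2 differences of -0.91 and -0.56, and 15 of 19 were higher. Ctsb, cathepsin B, was at 4828 and 5364.5 CPM in Slpi Fcna macrophages, against 350.1 and 516 CPM in C1q Mrc1 macrophages, a log2 difference of 3.53 (SE 0.25, adjusted p = 0.000262 by edgeR). Iron and haem genes had 9 of 11 higher and none lower, with Hmox1, haem oxygenase 1, higher by 2.88 and Tfrc by 4.39. Cfb, a component of the alternative complement pathway, was higher by 3.74. Apoe, which carries lipids out of cells, was at 6808 and 19546 CPM in Slpi Fcna macrophages, against 556 and 3459 CPM in C1q Mrc1 macrophages, and was higher by 2.86. Slpi-low Fcna macrophages had more Apoe, at 18339 and 22879 CPM without TMM scaling. On the same scale they also carried Ctsb (4086 and 3225), Hmox1 (333 and 305), Tfrc (38.5 and 51.9) and Cfb (479 and 400).

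Some genes had few or no UMIs in C1q Mrc1 macrophages. Rnase1 was at 339 and 274 CPM in Slpi Fcna macrophages and had no UMI in C1q Mrc1 macrophages, which makes it at least 121-fold higher with 3 counts taken for the group at 0. Calml4 and Gprc5c, an orphan receptor gene, likewise had no UMI there and were at least 30.5-fold and 24.5-fold higher. C6 had 2 UMIs in C1q Mrc1 macrophages, a ratio of 278 with a 95% counting interval of 76.9 to 2297. Gsta1, a glutathione transferase, was at 271 and 505 CPM in Slpi Fcna macrophages, against 5.43 and 6.01 CPM in C1q Mrc1 macrophages, while Slpi-low Fcna macrophages had 519 and 372 CPM.

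MHC class II genes had 9 of 10 lower and none higher, with a median of -2.47. Cd74 was at 3240 and 5756 CPM in Slpi Fcna macrophages, against 28268 and 23451 CPM in C1q Mrc1 macrophages, with no overlap and a log2 difference of -2.53 (SE 0.27, adjusted p = 0.00127 by edgeR). Clec12a, Treml4 and Arhgap22 were also lower, with log2 differences of -3.44, -3.54 and -3.81. Lpl, lipoprotein lipase, and Plin2, a coat protein of lipid droplets, were lower as well (-2.81 and -1.52). Flt3, a receptor of dendritic cells and their precursors, was at 6.47 and 35.9 CPM in Slpi Fcna macrophages, against 73.3 and 137 CPM in C1q Mrc1 macrophages, and was lower (-2.46).

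Cytokine genes were partly higher. Of 13 inflammatory cytokine genes 6 were higher and none lower, among them Cxcl1, a chemokine for neutrophils, which was at 1083 and 2944 CPM in Slpi Fcna macrophages against 149 and 433 CPM in C1q Mrc1 macrophages (log2 difference 2.75, SE 0.30, adjusted p = 0.00135 by edgeR). Il10 was higher by 3.35, and Ccl24, an eosinophil attractant, by 3.22. Slpi-low Fcna macrophages carried these genes too, in CPM without TMM scaling. Cxcl1 was at 622 and 1105 in Slpi-low Fcna macrophages, Il10 at 102 and 150 and Ccl24 at 1461 and 1589. Against that group none of 13 chemokine genes was called. Of 12 interferon response genes 5 were higher, with Irf7 by 2.81.

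The last comparison set the cells against Ccr2 Lyz2 cells. These cells also held genes of dendritic and lymphoid cells. Flt3 was at 6.47 and 35.9 CPM in Slpi Fcna macrophages, against 179 and 292 CPM in Ccr2 Lyz2 cells. Jchain, the joining chain of secreted antibodies, was at 0.81 and 0.39 CPM in Slpi Fcna macrophages, against 111 and 118 CPM in Ccr2 Lyz2 cells. Of 12161 genes, 2377 were higher (19.5% of genes) and 2259 lower (18.6%) in Slpi Fcna macrophages by edgeR's quasi-likelihood test, Benjamini-Hochberg adjusted. With so many genes called, a count over a list says less here than in the closest comparison. Resident macrophage genes had 10 of 10 higher, cathepsin and lysosomal genes 15 of 19, iron and haem genes 10 of 11 and interferon response genes 11 of 12, with Usp18 lower.

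The genes that differed most had few UMIs in Ccr2 Lyz2 cells. Ntsr1 was at 344 and 255 CPM in Slpi Fcna macrophages and had 3 UMIs in all Ccr2 Lyz2 cells, a ratio of 1382. Ltc4s was at 1417 and 909 CPM in Slpi Fcna macrophages, against 2.23 and 1.61 CPM in Ccr2 Lyz2 cells, and Ccl24 at 2503 and 3247 CPM against 4.74 and 6.32 CPM. F13a1 was at 2373 and 2095 CPM in Slpi Fcna macrophages, against 4.18 and 5.47 CPM in Ccr2 Lyz2 cells, a log2 difference of 8.80 (SE 0.29, adjusted p = 1.6e-06 by edgeR). C6 was higher by 8.98, Cxcl13, a B cell attractant, by 8.99, Siglec10 by 8.71 and Kcnt2, a potassium channel gene, by 8.34. Igf1, an insulin-like growth factor, was higher by 4.87 and Trem2, a lipid-sensing receptor, by 7.16. Slpi-low Fcna macrophages carried all of these genes as well, in CPM without TMM scaling. F13a1 was at 1695 and 1342 in Slpi-low Fcna macrophages, Ccl24 at 1461 and 1589 and Ltc4s at 675 and 397. Kcnt2 was at 334 and 257, Ntsr1 at 161 and 97.4 and Cxcl13 at 161 and 108. C6 was at 141 and 106 and Siglec10 at 73.3 and 58.8. Trem2 was at 274 and 296 there, against 194 to 248 and 122 to 188 in the Slpi bands of Slpi Fcna macrophages. Igf1 was at 299 and 245, against 252 to 270 and 201 to 306.

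Of 14 chemokine and adhesion receptor genes, 8 were lower than in Ccr2 Lyz2 cells and 3 higher, and of 5 dendritic markers 4 were lower and 1 higher. Alternative activation genes went both ways, with 4 of 13 lower and 6 higher. All 10 MHC class II genes were lower, with a median of -2.68. The transcription factor genes Runx2, Bcl11a and Runx3 differed by -4.87, -4.62 and -3.43, while the macrophage transcription factor list had 10 of 21 genes higher and 6 lower. Ccl5, a T cell attractant, was at 1.62 and 8.49 CPM in Slpi Fcna macrophages, against 100.03 and 395 CPM in Ccr2 Lyz2 cells. Cell cycle genes had 5 of 7 lower (Ccnb1, Cdk1, Top2a, Mki67 and Birc5) and none higher, and in the comparisons with the macrophage groups none of the 7 was called.

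**Figure D5:**
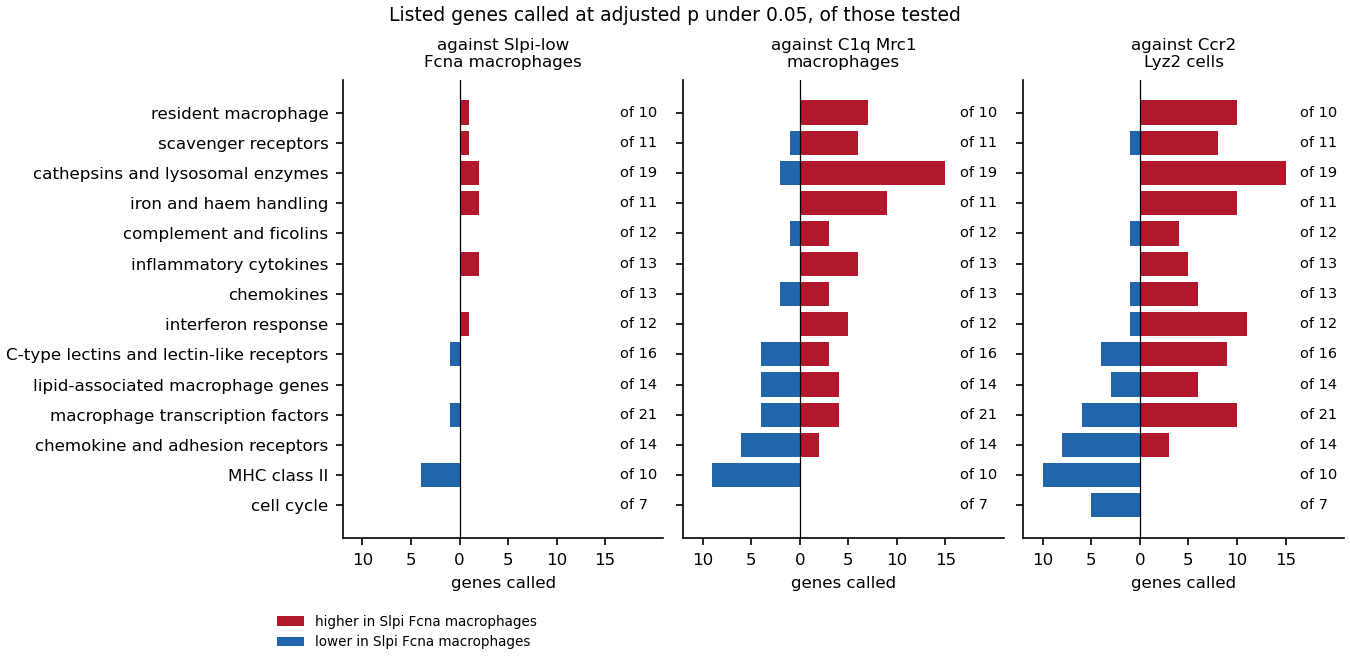
Number of genes of each list called higher (red, right of 0) and lower (blue, left of 0) in Slpi Fcna macrophages against each of the other 3 groups, with the number tested beside each bar. MHC class II genes lie on the lower side in all 3 panels, with 4, 9 and 10 of 10, and the cathepsin, iron and resident macrophage lists lie on the higher side in the panels against C1q Mrc1 macrophages and Ccr2 Lyz2 cells.

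The 3 comparisons share the Slpi Fcna macrophages, so their likeness is not independent support. Set side by side, Cd74 differed by -1.51 from Slpi-low Fcna macrophages and by -2.53 from C1q Mrc1 macrophages, C6 by 1.92 and 8.03, and Crabp2 by 1.93 and 6.33.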

How the data were processed

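Counts of UMIs per gene and cell barcode were deposited by the authors for 4 wild-type rat libraries, of which 2 hold skin and 2 fascia, made with Cell Ranger 6.0.1 and STAR per the submitters' processing notes, which name the builds mRatBN7.2 and GRCh38.p13, while the matrix headers name Cell Ranger 7.0.0. Whether intronic reads were counted is not given in the sources used here. The files hold 30560 genes, 7162 of them by identifier alone.

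Cells were chosen and compared with Python 3.11.15, scanpy 1.11.5, scipy 1.17.1, R 4.3.3 and edgeR 4.0.16. The members and gene lists were chosen with earlier results of these data known. UMIs were summed over the cells of each of 4 groups in each fascia library, since cells are not replicates, and tested in 1 quasi-likelihood fit with group and library as terms, TMM scaling, edgeR's low-count filter and Benjamini-Hochberg adjustment, with 15 gate genes left out of the tests. Library is a block because the groups compared are cells of the same libraries. The 3 comparisons share the Slpi Fcna macrophages. Named genes were, for each direction of a comparison, the 10 called genes that changed most, with a symbol, at least 50 CPM and groups that do not overlap, up to 4 called genes of each list, Cd209f and the macrophage lists; some of these are not reported here, and other genes were named after their values were seen, among them those that differ between libraries or by Cd209f. On simulated counts with 200 of 11805 genes changed 2-fold, the fit recovered 93% against Slpi-low Fcna macrophages, 60.5% against C1q Mrc1 macrophages and 91% against Ccr2 Lyz2 cells. Every simulated gene had the same spread and genes of low level were not changed, so these shares can be too high for the real data. Scrublet doublets were kept and removed as an alternative. Other alternatives were DESeq2 1.42.0, RLE scaling, no low-count filter, no library block, other gates, thinning to 5000 UMIs and leaving out each library.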

Additional observations from a re-analysis of the deposited data

How the results depend on the processing

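Against Slpi-low Fcna macrophages 206 genes were called. The count was 664 with no low-count filter, 825 in a fit of those groups alone, 486 with at least 10 Slpi UMIs, 313 after thinning to 5000 UMIs and 79 with at least 4 Fcna UMIs. It was 9 without the replicate block, 15 with at least 20 Fcna UMIs and 60 without cells carrying a Ccr2 UMI, the last 2 settings being chosen after seeing the data. Of the calls, 14 of the 15 and 52 of the 60 were among the 206, and DESeq2 called 307 genes. Of the 10 genes named as most increased, 4 were still called without the replicate block, among them Slpil3, which follows Slpi. None of the 10 most decreased was. With at least 20 Fcna UMIs, Gpr39 had 1.55 and Treml4 0.30. Against C1q Mrc1 macrophages, 976 genes were called without the replicate block and 968 in a fit of those groups alone, compared with 1578. There Tagln turned to -0.45 with doublets removed, and Ccl5 ranged between -4.94 and 0.30 when a library was left out. With no low-count filter the median of all genes in that comparison was 0.19. Against Ccr2 Lyz2 cells the counts lay between 3487 and 4987. The mean share of Slpi Fcna macrophages was 4.33% and lay between 3.80% and 4.82% over the other gates. The causes of these changes were not tested. Leaving out a library leaves 1 sample a group, which gives values and no count of calls. The C1q Mrc1 macrophages, with 34 and 97 cells, limit the depth of their comparison most.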

Other observations

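Immune-gated fascia cells with at least 5 Slpi UMIs and at most 1 Fcna UMI numbered 50 and 119 in replicates 1 and 2 and had another profile. In UMIs per 1000000 UMIs, without TMM scaling, Cd74 was at 37093 and 33002, Ccr2 at 262 and 248, C1qa at 144 and 9.17 and Cd163 at 1.34 and 4.89. C6 was at 1.34 and 0.61 in them and Dhrs7 at 44.2 and 33.0, while Slpi was at 1694 and 2214 and Slpil3 at 97.7 and 89.8. Hba-a3 was at 2.68 and 1.22. In skin, 30 and 3 immune-gated cells had at least 5 Slpi UMIs and at most 1 Fcna UMI.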
